A study of Homo sapiens with 6 samples.

Results

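Carbonic anhydrases are the enzymes that interconvert carbon dioxide and bicarbonate, and 8 genes of this family (CA2, CA5B, CA8, CA9, CA11, CA12, CA13 and CA14) were described here among the 57500 genes counted. They were taken by gene symbol from the TPM table of the series (TPM is a level scaled by gene length and by library), and the same gene identifiers were read in the count files. Of the 8 genes, 7 passed the filter on low counts and were tested; CA9 did not and is given by its reads. The RNA came from 22Rv1, an established line of human prostate cancer cells. A control group of wild-type 22Rv1 (called parental here) and a group whose genotype label names a liver metastasis as the origin of the 22Rv1 cells (here liver-derived) held 3 libraries each. All cells were grown in RPMI-1640 with fetal bovine serum, and the labels name no treatment, no host and no number of separate derivations. The series' design text calls the replicates biological without saying whether they were separate cultures, so p-values measure only the spread among these 6 libraries, which may be technical, and not that between derivations.

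The members of the family differ in where they work. CA2 and CA13 are enzymes of the cytosol, and CA5B works in the mitochondrial matrix, where bicarbonate feeds carboxylases. CA9, CA12 and CA14 span the plasma membrane with the catalytic domain outside the cell, where they help to set extracellular pH. CA8 and CA11 are carbonic anhydrase-related proteins, which keep the fold and lack the catalytic activity. In tumours CA9 is best known as a target of hypoxia-inducible factor (HIF), and CA9 and CA12 are studied as surface proteins of acidic tumours.

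The CA9 promoter shows the HIF motif, and it is printed beside that of CA12, the other surface enzyme much studied in tumours, because their RNA stood far apart in these cells. Each run is the 250 bases before the RefSeq start (GRCh38.p14), with a match to ACGTG, the core of the HIF response element, in capitals where either strand holds it. The CA9 window is chr9:35673678-35673927 on the plus strand, and the CA12 window is chr15:63381847-63382096 on the minus strand.
CA9: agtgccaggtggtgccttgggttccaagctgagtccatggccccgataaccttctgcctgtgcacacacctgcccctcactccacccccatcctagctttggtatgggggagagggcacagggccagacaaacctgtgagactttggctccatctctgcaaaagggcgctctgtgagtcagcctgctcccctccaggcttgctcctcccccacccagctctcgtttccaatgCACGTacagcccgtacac
CA12: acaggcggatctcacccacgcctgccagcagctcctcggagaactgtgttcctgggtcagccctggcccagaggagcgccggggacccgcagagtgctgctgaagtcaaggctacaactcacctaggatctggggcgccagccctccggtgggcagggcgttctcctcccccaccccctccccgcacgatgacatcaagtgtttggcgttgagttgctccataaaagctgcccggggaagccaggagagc
CA9 held 1 match, on the opposite strand, whose first printed base lies 18 bases before the RefSeq start. The CA12 window held none, and neither did those of CA5B and CA14. Of 35116 RefSeq windows of that length, 18.5% held ACGTG on either strand. Only these 4 members were read for promoters: the windows of CA2, CA8 and CA13 were left out, and CA11 had no entry. GC content was 60.4% in the CA9 window and 64.8% in that of CA12, against a median of 58.0% over all windows, and the letters CG occurred 5 and 13 times, against a median of 11. A match describes the letters in the window and says nothing of factor binding in these cells.

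RNA of 1 inactive member made up most of the family's total. CA11 (ENSG00000063180; chromosome 19, 48637942 to 48646312, minus strand, a protein-coding gene; GRCh38, as for all positions in the files) had 122, 154 and 131 TPM in parental replicates 1, 2 and 3, against 106, 102 and 104 TPM in liver-derived replicates 1, 2 and 3. Its mean over all libraries lay above those of 91.5% of the 18084 protein-coding genes with reads. CA8 and CA11 together held 84.6 to 89.6% of the summed TPM of the 8 members in the parental libraries and 86.9 to 89.1% in the liver-derived ones. The sum over all 8 was 171 ± 13.3 TPM (SD, n = 3) in the parental and 122 ± 0.359 TPM (SD, n = 3) in the liver-derived libraries.

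Levels per length fell into a similar order in both groups. After CA11, the parental order was CA12 at 13.3 ± 0.451, CA8 at 13.1 ± 1.01, CA2 at 4.05 ± 1.96, CA5B at 1.89 ± 0.352, CA14 at 1.46 ± 0.0522, CA13 at 1.03 ± 0.228 and CA9 at 0.224 ± 0.123 TPM (SD, n = 3 each). In that order the libraries of CA12 and CA8 overlapped, as did those of CA5B and CA14, and the other neighbours were separated. In the liver-derived libraries CA12 stood at 6.01 ± 0.213, CA2 at 4.97 ± 1.40, CA8 at 3.64 ± 0.244, CA5B at 1.57 ± 0.227, CA14 at 1.26 ± 0.219, CA13 at 0.445 ± 0.112 and CA9 at 0.199 ± 0.0611 TPM (SD, n = 3 each). There CA12 overlapped CA2, and CA5B overlapped CA14. CA8 went from the third to the fourth place, behind CA2.

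**Figure D1:**
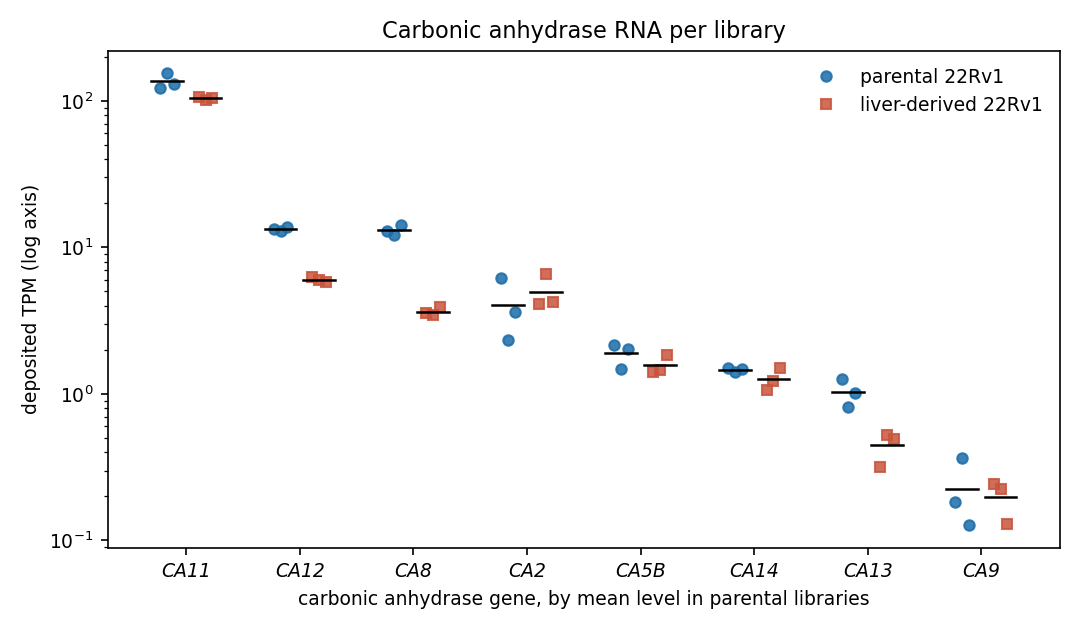
Deposited TPM of the 8 carbonic anhydrases on a log axis, with circles for the parental and squares for the liver-derived libraries and a bar at each group mean. CA11 lies between 102 and 154 TPM in all 6 libraries, CA8 and CA12 drop between the groups without overlap, and CA9 stays between 0.127 and 0.363 TPM.

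The comparison of liver-derived with parental cells asks how this family differed between the metastasis-derived cells and their parent. Of the 7 tested members, 4 were lower in the liver-derived cells (CA8, CA11, CA12 and CA13), none was higher, and CA2, CA5B and CA14 did not pass (quasi-likelihood test of edgeR at an adjusted p under 0.05, with 19255 genes tested). Over all genes tested 38.8% passed, 21.3% as lower and 17.5% as higher. CA8, CA12 and CA13 passed and were also lower by at least 1 on the log2 scale, and both held for 9.32% of all genes. The median log2 fold change was -0.35 over the 7 members and -0.01 over all genes tested. The 4 lower members were also the ones whose libraries did not overlap between the groups, as held for 54.0% of all genes, 27.9% with the liver-derived libraries lower. In bulk RNA, fewer cells that express a gene and less RNA per cell cannot be told apart.

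**Figure D2:**
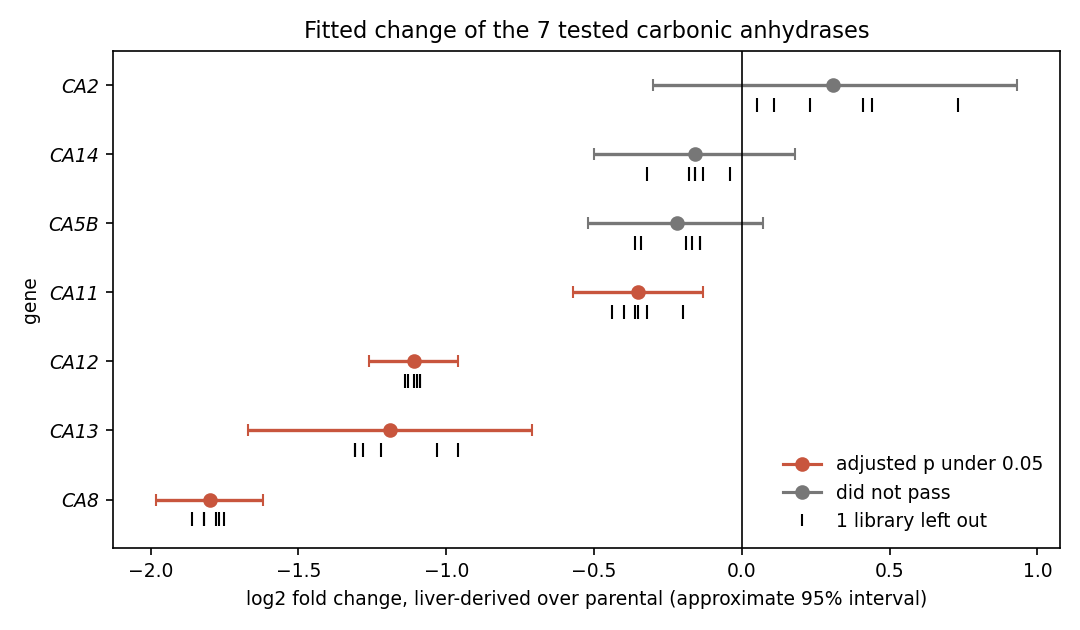
Fitted log2 fold change (x axis, liver-derived over parental) of the 7 tested carbonic anhydrases with approximate 95% intervals; ticks under each point are the fits with 1 library left out. CA8, CA12, CA13 and CA11 lie below 0 with their intervals, whereas the intervals of CA5B (-0.52 to 0.07), CA14 (-0.50 to 0.18) and CA2 (-0.30 to 0.93) cross 0.

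CA8, an inactive member, had the largest fitted change of the 7 tested members. CA8 (ENSG00000178538; chromosome 8, 60187347 to 60281412, minus strand, a protein-coding gene) encodes a protein that binds the inositol trisphosphate receptor of the endoplasmic reticulum. It stood at 20.5, 20.4 and 22.0 CPM (counts relative to the TMM-normalised library total) in parental replicates 1, 2 and 3, against 5.84, 5.66 and 6.47 CPM in liver-derived replicates 1, 2 and 3. Every parental library was thus more than 3 times as high as every liver-derived one. Means were 20.9 ± 0.884 and 5.99 ± 0.426 CPM (SD, n = 3 each), 3.49-fold lower (log2 fold change -1.80, SE 0.09, edgeR adjusted p = 6.82e-07). A parental library held 925 to 1158 reads of it and a liver-derived one 158 to 314, and no exon of another counted gene overlapped CA8. It was the only member that passed glmTreat, which asks for a change beyond 2-fold (adjusted p = 3.65e-05), as did 7.30% of all genes.

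CA11, a secreted relative of CA8, fell by less. It measured 68.8, 93.1 and 72.9 CPM in parental replicates 1, 2 and 3, against 62.3, 60.4 and 61.8 CPM in liver-derived replicates 1, 2 and 3. The liver-derived libraries lay close together and below all parental ones, and parental replicate 2 was the highest. The means were 78.3 ± 13.0 and 61.5 ± 0.976 CPM (SD, n = 3 each), 1.27-fold lower (log2 fold change -0.35, SE 0.11, edgeR adjusted p = 0.0360). Without parental replicate 2, a library that stood apart from the other parental ones over all genes, the change was -0.20 and passed (adjusted p = 3.17e-06). With liver-derived replicate 1, 2 or 3 left out it did not pass (adjusted p = 0.102, 0.127 and 0.105).

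Of the transmembrane enzymes, CA12 fell, CA14 did not pass, and CA9 held few reads. CA12 (ENSG00000074410; chromosome 15, 63321378 to 63382161, minus strand, a protein-coding gene) measured 26.6, 27.4 and 27.1 CPM in parental replicates 1, 2 and 3, against 13.0, 12.4 and 12.2 CPM in liver-derived replicates 1, 2 and 3. The libraries of each group lay within 1 CPM of each other and far from the other group. The means were 27.0 ± 0.432 and 12.5 ± 0.408 CPM (SD, n = 3 each), 2.16-fold lower (log2 fold change -1.11, SE 0.08, edgeR adjusted p = 4.62e-06). No exon of another counted gene overlapped CA12, and with 346 to 1429 reads a library it was well covered.

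CA14 (ENSG00000118298; chromosome 1, 150257159 to 150265078, plus strand, a protein-coding gene) measured 1.56, 1.56 and 1.52 CPM in parental replicates 1, 2 and 3, against 1.17, 1.32 and 1.65 CPM in liver-derived replicates 1, 2 and 3. The groups overlapped, since liver-derived replicate 3 was the highest of all 6. The log2 fold change was -0.16 (SE 0.17, edgeR adjusted p = 0.495), with an interval of -0.50 to 0.18. The difference between the changes of CA12 and CA14 was not tested. CA12 carried most of the RNA of the transmembrane members, whose summed TPM was 15.0 ± 0.368 in the parental and 7.47 ± 0.0760 in the liver-derived libraries (SD, n = 3 each).

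CA9 (ENSG00000107159; chromosome 9, 35673856 to 35681159, plus strand, a protein-coding gene) held 4, 8 and 3 reads in parental replicates 1 to 3 and 6, 3 and 3 reads in the liver-derived replicates. Summed over a group these are 15 reads against 12, or 0.104 CPM (95% Poisson interval 0.0583 to 0.172) against 0.0915 CPM (0.0473 to 0.160), and both intervals cover counting error only. The ratio of liver-derived to parental was 0.878, with an exact counting interval of 0.375 to 2.01, so a difference within that interval was not detectable at this depth. ARHGEF39, an exchange factor gene on the opposite strand, shares 643 of the 1670 exon bases of CA9 (38.5%) and held 711 to 1614 reads a library. The strand setting of the counting is not given in the sources used here, so reads from the shared bases cannot be told apart, and the CA9 count is uncertain.

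Core genes of the HIF pathway, which regulates CA9, were counted in the same libraries. HIF1A, the oxygen-regulated subunit, stood at 126 ± 16.9 and 120 ± 1.96 CPM (log2 fold change -0.07, edgeR adjusted p = 0.627; named after its values were seen). EGLN3 and EGLN1, prolyl hydroxylases that mark HIF for decay and are themselves induced by HIF, rose from 3.10 ± 0.437 to 17.2 ± 0.657 CPM (2.48 on the log2 scale, edgeR adjusted p = 5.43e-07) and from 71.7 ± 5.52 to 95.8 ± 2.78 CPM (0.42, adjusted p = 0.00275). ARNT2, a partner subunit, fell from 28.3 ± 2.47 to 3.31 ± 0.555 CPM (-3.07, edgeR adjusted p = 3.28e-07). Of the 10 genes of the list, all tested, 2 rose, 1 fell and 7 did not pass, or 30.0% called against 38.8% of all genes, with a median of -0.01; without parental replicate 2, 3 rose and 4 fell.

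Of the cytosolic members, CA13 fell and CA2 did not pass. CA13 (ENSG00000185015; chromosome 8, 85220587 to 85284073, plus strand, a protein-coding gene) measured 1.89, 1.3 and 1.5 CPM in parental replicates 1, 2 and 3, against 0.498, 0.823 and 0.783 CPM in liver-derived replicates 1, 2 and 3. The groups did not overlap, although the lowest parental and the highest liver-derived library were less than 1 CPM apart. The means were 1.56 ± 0.302 and 0.701 ± 0.177 CPM (SD, n = 3 each), 2.28-fold lower (log2 fold change -1.19, SE 0.24, edgeR adjusted p = 0.00449). This rests on 59 to 92 reads per parental library and 23 to 38 per liver-derived one.

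CA2 (ENSG00000104267; chromosome 8, 85463852 to 85481493, plus strand, a protein-coding gene), the cytosolic enzyme of very high turnover, had group means that differed by less than the SD within each group. It measured 3.56, 1.43 and 2.09 CPM in parental replicates 1, 2 and 3, against 2.47, 3.97 and 2.57 CPM in liver-derived replicates 1, 2 and 3. Parental replicate 2 was the lowest and liver-derived replicate 2 the highest, and the groups overlapped. The means were 2.36 ± 1.09 and 3.01 ± 0.839 CPM (SD, n = 3 each; log2 fold change 0.31, SE 0.31, edgeR adjusted p = 0.474), with an interval of -0.30 to 0.93. Leaving out parental replicate 1 gave 0.73 (adjusted p = 0.0574), and leaving out parental replicate 2 gave 0.05 (adjusted p = 0.911).

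CA2 and CA13 lie in the carbonic anhydrase cluster of chromosome 8 with CA1, the erythrocyte enzyme, and CA3, the muscle enzyme. CA1 held 0 reads in all 6 libraries, which allows up to 3 reads, or 0.0563 to 0.106 CPM, in a library. CA3 held 11, 8 and 16 reads in parental replicates 1 to 3 and 2, 2 and 1 in the liver-derived replicates. On raw library totals the ratio of liver-derived to parental was 0.157, with an exact counting interval of 0.0480 to 0.402. CA3 did not pass the filter. In CPM, CA3 and CA13 were lower in every liver-derived library than in every parental one, and CA2 was not. The same held for 27.9% of all genes tested. As to erythroid cells, which are rich in CA1 and CA2, HBB, ALAS2 and SLC4A1 were under 0.1 CPM on average in both groups, and the summed level of the 6 erythroid markers, nearly all from the near-identical HBA1 and HBA2, was 19.0 to 24.8 CPM in parental against 4.71 to 5.33 CPM in liver-derived libraries. The part of erythroid cells in the CA2 and CA13 values was not tested.

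CA5B (ENSG00000169239; chromosome X, 15688830 to 15788409, plus strand, a protein-coding gene), the mitochondrial member, measured 4.96, 3.70 and 4.68 CPM in parental replicates 1, 2 and 3, against 3.41, 3.54 and 4.45 CPM in liver-derived replicates 1, 2 and 3. Liver-derived replicate 3 lay among the parental values, and the groups overlapped. The means were 4.45 ± 0.661 and 3.80 ± 0.566 CPM (SD, n = 3 each; log2 fold change -0.22, SE 0.15, edgeR adjusted p = 0.283). Without parental replicate 2 the change was -0.34 and passed (adjusted p = 0.0195). Its transcribed pseudogene CA5BP1, which starts upstream on the same strand, was higher in CPM, at 8.52 ± 0.712 and 8.06 ± 0.418 CPM (log2 fold change -0.08, edgeR adjusted p = 0.554). Of the 8555 distinct stretches of 150 bases in the CA5B transcripts, 50 (0.584%) also occurred in CA5BP1 transcripts, and stretches that differ by few bases were not counted, so the division of reads between both genes is uncertain. The antisense gene INE2 held 0 reads in all libraries. All of its 1874 exon bases lie within exons of CA5B, where they make up 22.0% of the 8520 exon bases. The strand setting of the counting is not given in the sources used here, so reads from these bases cannot be told apart. The 0 is thus no sign that INE2 was silent, and the CA5B count is uncertain there too.

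Carboxylases and synthetases use bicarbonate, which CA5B supplies to some of them in mitochondria. Of 9 tested carboxylases and synthetases, none rose, 2 fell and 7 did not pass, or 22.2% called against 38.8% of all genes, with a median of -0.05. CPS1, the mitochondrial synthetase that starts the urea cycle, went down from 10.5 ± 0.183 to 2.18 ± 0.278 CPM (a log2 fold change of -2.27, edgeR adjusted p = 8.69e-07), and ACACB, an acetyl-CoA carboxylase, fell from 26.4 ± 4.43 to 19.9 ± 0.690 CPM (-0.41, edgeR adjusted p = 0.0226). The count depended on parental replicate 2, without which 2 rose and 4 fell; 1 fell without any 1 of the liver-derived replicates 1, 2 and 3.

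The rest of the family held few reads except CA10, a related protein without catalytic activity that binds neurexins. CA10 measured 4.96, 4.78 and 4.97 CPM in parental replicates 1, 2 and 3, against 2.62, 3.22 and 2.80 CPM in liver-derived replicates 1, 2 and 3, without overlap (log2 fold change -0.78, SE 0.11, edgeR adjusted p = 5.89e-04). The inactive relatives CA8, CA10 and CA11 were thus each called lower, as were 21.3% of all genes, and the call of CA11 is lost without any 1 of the liver-derived replicates 1, 2 and 3. Of the 11 other family genes and pseudogenes in the list, only CA10 and CA5BP1 passed the filter, and CA10 was the only one that changed. CA3 also passed the filter and fell without parental replicate 2 or without liver-derived replicate 1, 2 or 3, which made 2 that fell. CA4, CA5A, CA6 and CA7 held at most 10 reads over a group.

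Genes of transporter families that work beside carbonic anhydrases changed in both directions. The bicarbonate transporter list held genes of the SLC4 and SLC26 families, not all of which carry bicarbonate. Of 15 tested, 5 rose, 5 fell and 5 did not pass, or 66.7% called against 38.8% of all genes, with a median of -0.11. Those that rose were SLC4A5, SLC4A11, SLC26A2, SLC26A6 and SLC26A7. SLC4A5 and SLC26A7 were under 1 CPM on average in both groups. SLC4A5 shares 1324 of its 8025 exon bases with MTHFD2 on the opposite strand, which held 327 CPM on average. SLC4A10 and SLC4A8 are sodium-driven bicarbonate transporters and SLC26A3 is a chloride-bicarbonate exchanger. SLC4A10, SLC26A3 and SLC4A8 went down from 4.64 ± 0.909 to 0.421 ± 0.0664 CPM (a log2 fold change of -3.48), from 1.42 ± 0.406 to 0.212 ± 0.0722 CPM (-2.66) and from 6.05 ± 0.246 to 1.61 ± 0.207 CPM (-1.89). SLC4A8 shares exon bases with GALNT6 on the opposite strand, and SLC4A10 with TBR1 on the same strand. SLC4A2, an anion exchanger and by far the most abundant in counts, stood at 671 ± 99.2 and 622 ± 21.9 CPM (-0.11, edgeR adjusted p = 0.436) and was named after its values were seen.

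Genes of proton and lactate export were also split. Of 18 tested, 5 rose, 5 fell and 8 did not pass, or 55.6% called against 38.8% of all genes, with a median of 0.15. SLC9A2, a sodium-proton exchanger, went down from 1.51 ± 0.307 to 0.308 ± 0.109 CPM (a log2 fold change of -2.33) and ATP12A, a proton pump, from 1.02 ± 0.332 to 0.391 ± 0.0837 CPM (-1.37). SLC16A4, of the monocarboxylate transporter family, rose from 2.17 ± 0.114 to 6.37 ± 0.632 CPM (1.55); its exons overlap LAMTOR5-AS1 on the opposite strand. Without parental replicate 2, 9 rose and 5 fell. Of 3 tested acid and bicarbonate sensors, 1 fell and 2 did not pass, or 33.3% called against 38.8% of all genes. It was ASIC1, a proton-gated channel, that fell, from 28.6 ± 4.28 to 21.6 ± 1.34 CPM (-0.40, edgeR adjusted p = 0.0205). Without parental replicate 2, 1 sensor rose and 1 fell, and without liver-derived replicate 1 or 2 the count was 0 by edgeR.

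**Figure D3:**
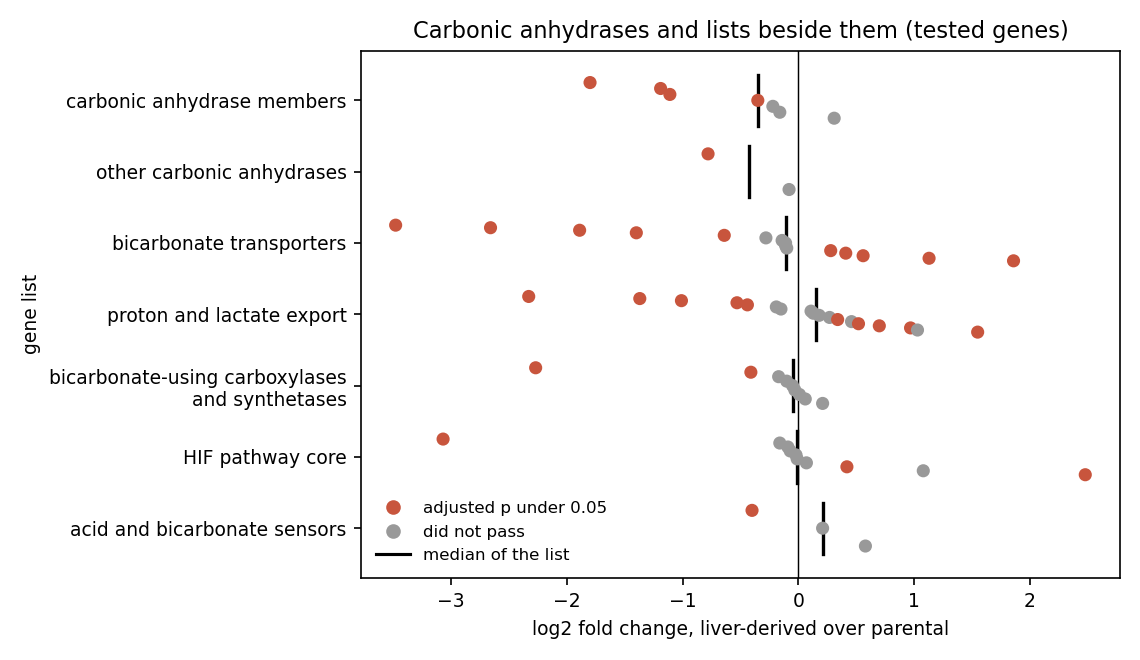
Log2 fold change (x axis, liver-derived over parental) of each tested gene in the carbonic anhydrase family and in 6 lists beside it, with passing genes in red and a bar at each list's median. The 4 passing members lie below 0, from -1.80 to -0.35, whereas passing genes of the bicarbonate transporter and export lists lie on both sides.

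Genes whose pattern over the 6 libraries was most like that of the 3 members with the largest changes were sought among 12796 other protein-coding genes, by the root mean square difference of log2 CPM centred on each gene's mean. Nearest to CA8 were TUB (difference 0.0730), from 46.7 ± 2.27 to 13.6 ± 0.501 CPM, and PTPRB (0.0758), from 260 ± 12.7 to 77.3 ± 1.45 CPM. Nearest to CA12 were FZD7 (0.0181), from 4.24 ± 0.0943 to 1.93 ± 0.0888 CPM, and KCTD21 (0.0241), from 6.30 ± 0.177 to 2.89 ± 0.170 CPM. Nearest to CA13 were ZNF727 (0.142) and LYSMD2 (0.165). With 2 groups, such likeness rests mostly on the size of the group difference. KCTD21 shares 1184 of its 4164 exon bases with KCTD21-AS1 on the opposite strand. Exons of TUB, PTPRB and LYSMD2 also overlap counted genes on the opposite strand.

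On the scale of the deposited TPM, 6 members were tested and 3 were lower, against 21.7% of 17453 genes lower and 37.0% called in either direction by limma. The changes on the log2(TPM + 1) scale, which understates those of low genes, were -1.60 for CA8 (SE 0.09, limma adjusted p = 2.89e-05), -1.03 for CA12 (SE 0.07, limma adjusted p = 6.64e-05) and -0.37 for CA11 (SE 0.09, limma adjusted p = 0.0170). CA2, CA5B and CA14 did not pass (limma adjusted p = 0.498, 0.374 and 0.446), and CA13 and CA9 were under the filter of 1 TPM in 3 libraries. TPM values are the counts rescaled by length, so this is no independent measurement.

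Library totals ranged from 28395265 to 53275252 counts. Over genes with many reads, the chi-square per degree of freedom between parental replicate 2 and the other parental libraries was 55.7 and 62.7, against 2.26 to 3.15 for the other pairs within a group, so no pair agreed within sampling noise. As for the label of the cells, all 8 prostate epithelial markers were tested and together held 3740 to 3930 CPM in parental against 3540 to 3610 CPM in liver-derived libraries. Among 10 hepatocyte markers APOB, TTR, SERPINA1 and CYP3A4 were under 0.2 CPM on average in both groups, and the list summed to 74.8 to 81.6 CPM in parental against 75.9 to 78.7 CPM in liver-derived libraries, mostly ALB. The 5 glial and neuronal markers summed to 40.0 to 42.2 CPM in parental against 44.0 to 46.7 CPM in liver-derived libraries, and the 5 stromal and leukocyte markers to 19.5 to 23.2 and 19.8 to 20.9 CPM. These sums hold opposite changes: MBP rose from 16.9 ± 0.500 to 39.2 ± 0.993 CPM, SNAP25 fell from 23.0 ± 0.814 to 5.42 ± 0.385 CPM, GFAP fell from 0.361 ± 0.132 to 0.106 ± 0.0753 CPM, and LUM fell from 1.75 ± 0.245 to 0.0674 ± 0.0663 CPM. In the same way 3 prostate epithelial markers rose and 4 fell, or 87.5% called against 38.8% of all genes. Of 6 tested hepatocyte markers 2 rose and 3 fell, or 83.3% called. CPS1, described above, is among the hepatocyte markers. The part of these markers in the carbonic anhydrase values was not tested.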

How the data were processed

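PolyA-selected RNA of 6 libraries was sequenced as paired reads, per the labels' protocols. Trimmomatic 0.36, STAR 2.5.2b, GRCh38 and featureCounts of Subread 1.5.2 are named in the submitters' processing notes; for parameters, strand setting and annotation release: not given in the sources used here. The authors deposited raw counts per gene and a TPM table, whose 391182 rows without a gene were left out. TPM recomputed from the counts differed by at most 4.82e-05 in relative terms.

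Counts were tested with edgeR 4.0.16 in R 4.3.3 (filterByExpr, TMM, levels as CPM, robust quasi-likelihood fit on the group, Benjamini-Hochberg over 19255 genes, threshold 0.05), and log2(TPM + 1) with limma 3.58.1 for genes of at least 1 TPM in 3 libraries. The SD is taken across the libraries of a group, the SE from the model. Total counts of 28395265 to 53275252 set the precision. Both steps were tested on simulated counts.

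Members and lists were chosen with earlier results of these data known. All 8 members were named; from each list at most 3 passing genes, those of largest change with a mean of 1 CPM or more in either group; and for 3 members the 2 genes nearest in pattern. Overlapping genes, chromosomal neighbours, markers, the low-count family genes and the genes of the bicarbonate transporter list that rose were named besides. The alternatives were other scaling factors, filters, DESeq2 1.42.0, limma-voom, glmTreat, 1 library left out, a replicate block, and, on the TPM scale, a 0.1 pseudocount or all genes unfiltered. Promoters are from RefSeq, GRCh38.p14, and biotypes from GENCODE release 29. Protein sequences were not analysed here. Values of some marker genes are not reported here.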

Additional observations from a re-analysis of the deposited data

How the results depend on the processing

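The 4 falls among the 7 tested members held under other scaling factors, filters, DESeq2 and limma-voom; with 1 library left out the number called ranged from 3 to 5. CA11 lost its call without any 1 liver-derived library, and CA5B gained one without parental replicate 2. Under glmTreat against a log2 fold change of 1, 1 member passed (CA8), and 1406 genes overall against 7476; CA11, CA12 and CA13 did not pass it (adjusted p = 1, 0.276 and 0.749). With 1 library left out, calls over all genes ranged from 5600 to 11870, the latter without parental replicate 2. In the lists the range was 1 to 2 for other carbonic anhydrases, 8 to 11 for bicarbonate transporters, 9 to 14 for proton and lactate export, 1 to 6 for carboxylases and synthetases, 3 to 7 for the HIF pathway and 0 to 2 for the sensors. None of the 7 tested members changed direction under these alternatives; CA9, under the filter, was fitted only with no filter (-0.15, adjusted p = 0.925). Replicate numbers did not pair the samples: correlations of same-numbered deviations were -0.0410, -0.0206 and 0.0869. With the replicate block 4 members and 7052 genes were called, and the lists kept their counts of 1, 10, 10, 2, 3 and 1. On the TPM scale 3 members were called at either pseudocount and without a filter. CA9, with 3 to 8 reads a library, and CA13, with 23 to 92, are limited by depth; for other causes of these differences between settings, the cause was not tested.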

Other observations

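Genes next to the carbonic anhydrases on their chromosomes were looked at as the 2 nearest tested protein-coding genes on each side. Of 28 distinct neighbours, 6 were higher, 6 were lower and 16 did not pass (edgeR quasi-likelihood test, adjusted p under 0.05), or 42.9% called against 38.8% of all genes. DBP, a transcription factor of the circadian clock output that ends 0.504 kb before CA11 begins on the chromosome, fell from 23.7 ± 2.13 to 11.0 ± 0.917 CPM (SD, n = 3 each; log2 fold change -1.11, edgeR adjusted p = 3.48e-05), and its exons overlap SPHK2 on the opposite strand. SPHK2, the next gene, stood at 29.3 CPM in both groups (0.00, edgeR adjusted p = 0.987). TOX, a chromatin-binding factor 1070 kb from CA8, rose from 2.36 ± 0.171 to 6.30 ± 0.0940 CPM (1.42), and RAB2A, 235 kb away on the other side, stood at 123 and 111 CPM (-0.15, edgeR adjusted p = 0.185). RBIS, 0.166 kb from CA13, stood at 20.3 and 21.5 CPM (0.08, edgeR adjusted p = 0.532). RBIS shares 969 of its 2514 exon bases with E2F5 on the opposite strand. Exons of SPHK2 and TOX overlap RPL18 and TOX-DT, also on the opposite strand. APH1B, beside CA12, fell from 1.80 ± 0.150 to 1.03 ± 0.132 CPM (-0.83, edgeR adjusted p = 0.00384), and USP3, on the other side, rose from 47.4 ± 4.16 to 62.9 ± 1.01 CPM (0.41); it shares exon bases with USP3-AS1. CLTRN, an amino acid transport protein beside CA5B, rose from 0.817 ± 0.193 to 2.16 ± 0.0936 CPM (1.39). BMX, a tyrosine kinase farther out on the same side, fell from 0.440 ± 0.0766 to 0.0188 ± 0.0180 CPM (-4.60, edgeR adjusted p = 3.33e-04), the largest fitted change among these neighbours. BMX held 24, 16 and 25 reads in parental replicates 1, 2 and 3 and 0, 1 and 1 in the liver-derived ones, so the size of its change is uncertain. CHD7, beyond RAB2A, rose from 34.8 ± 1.71 to 45.6 ± 1.01 CPM (0.39, edgeR adjusted p = 0.00271), and NSMAF, beyond TOX, did not pass (0.11, edgeR adjusted p = 0.212). No neighbour of CA8 was thus called lower, and those of CA12 changed in both directions. Farther from CA13, WWP1 rose (1.03, edgeR adjusted p = 8.29e-05) and RMDN1 fell (-0.43, edgeR adjusted p = 0.0126). Exons of WWP1 and RMDN1 overlap on opposite strands. These genes were named after their values were seen.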
